A study of Mus musculus with 12 samples.

Results

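The hyaluronan synthesis and turnover genes are 7 genes chosen by symbol, out of 32419 genes listed in either deposited table and 27321 listed in both. They are the synthases Has1, Has2 and Has3, the hyaluronidases Hyal1 and Hyal2, the hyaluronan-binding protein Cemip and the receptor Cd44. All 7 were listed in both tables and all 7 passed the filter on low values in every comparison. The RNA came from primary brain endothelial cells (BECs) of 8-week-old wild-type mice (Cort+/+) and mice lacking the neuropeptide cortistatin (Cort-/-), which the labels give as C57BL/6, and each replicate was a pool from 3 mice. BECs were enriched by puromycin and grown in culture. They were then kept in normoxia and normoglycemia (NX/NG, 21% O2 and 5.5 mM glucose) for 24 h, or deprived of glucose at 1% O2 for 4 h and reoxygenated for 20 h (OGD-R). The labels also name a mouse stroke model (MCAO), whereas the study's methods describe cultured cells. Of 12 samples in the labels, 10 had a column: 3 Cort+/+ and 2 Cort-/- libraries in each environment.

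Hyaluronan is a long unsulfated glycosaminoglycan that is made at the plasma membrane from UDP-sugars and extruded into the extracellular space. In blood vessels it is part of the endothelial glycocalyx, the sugar-rich layer on the luminal face, and of the surrounding matrix. Its chains are shortened outside the cell or at its surface by proteins such as Hyal2 and Cemip, degraded further in lysosomes by Hyal1, and bound by receptors such as Cd44. Turnover is fast, so the amount and chain length of hyaluronan depend on synthesis and breakdown together; none of this was measured here, only the RNA.

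Levels are RPKM (read density per kilobase of exon, corrected for sequencing depth) as deposited, and each environment was scaled apart by the authors. For differences between environments, both tables were rescaled together, which multiplied the deposited RPKM by 1.02 to 1.03 under NX/NG and by 0.974 to 0.975 under OGD-R. A difference is a log2 fold change on the log2(RPKM + 0.1) scale with its standard error (SE), tested with limma, and a gene was called at a false discovery rate (FDR, Benjamini-Hochberg over all genes tested) of at most 0.05. Every library held between 12386048 and 12390428 reads on genes. Ribosomal RNA (Rn18s-rs5) was low in a pair of OGD-R libraries, at 0.0775% of reads in Cort+/+ replicate 1 and 0.0951% in Cort-/- replicate 3, beside 7.64% to 15.8% elsewhere. Cort had 1 to 2 reads in the Cort+/+ NX/NG libraries, at most 1 under OGD-R, and 0 in the 4 Cort-/- libraries, all within the 3 reads that a count of 0 allows, so its level does not check the labels. The 10 endothelial markers summed to between 847 and 1296 deposited RPKM, led by Cdh5. Microglial markers summed to at most 2.06, neuronal markers to at most 1.05, astrocyte markers to at most 4.17 and oligodendrocyte markers to at most 0.631, whereas epithelial markers ranged from 1.43 to 49.7 and smooth muscle markers, mostly Acta2 and Tagln, summed to between 995 and 1777.

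The start-site regions of Cemip and Cd44 are shown because these are the 2 turnover and receptor genes that were lower in Cort-/- than in Cort+/+ NX/NG libraries without overlap, as described further on. Each run holds the 250 bases before the RefSeq start site, read 5′ to 3′ on the minus strand of GRCm38.p6, at chr7:84086506-84086755 for Cemip and chr2:102901666-102901915 for Cd44. Capitals mark matches, on either strand, to the GC box GGGCGG, the TATA box TATAAA, the hypoxia-response core ACGTG and the AP-1 motif TGANTCA, none of which overlapped another here.
Cemip: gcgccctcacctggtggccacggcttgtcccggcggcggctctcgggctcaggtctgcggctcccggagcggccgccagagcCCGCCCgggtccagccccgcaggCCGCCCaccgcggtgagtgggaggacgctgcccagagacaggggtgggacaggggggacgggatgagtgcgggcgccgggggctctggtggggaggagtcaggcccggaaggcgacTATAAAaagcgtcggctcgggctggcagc
Cd44: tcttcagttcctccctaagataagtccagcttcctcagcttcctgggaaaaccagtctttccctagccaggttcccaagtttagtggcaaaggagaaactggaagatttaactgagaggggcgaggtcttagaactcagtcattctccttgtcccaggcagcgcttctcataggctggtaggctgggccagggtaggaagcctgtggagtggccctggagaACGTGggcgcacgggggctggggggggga
Cemip held 2 GC boxes and 1 TATA box, and Cd44 held 1 hypoxia-response core. Of the 32851 mouse promoters of the same length, 32.7% held a GC box, 12.4% a TATA box, 16.6% the hypoxia-response core and 6.75% the AP-1 motif. The Cemip region held 26 CpG dinucleotides and the Cd44 region 5, against a median of 6. Of the 7 genes, 5 had an entry; those of Hyal1 and Hyal2 held 2 and 1 GC boxes, and that of Has1 held none of the 4 motifs. These matches describe the letters in these windows and no binding was measured.

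In Cort+/+ BECs under NX/NG, Cd44 had the highest deposited RPKM of the 7 genes and the synthases the lowest. Cd44 stood at 36.5 ± 4.79 (SD, n = 3), Hyal2 at 18.7 ± 0.525, Cemip at 18.5 ± 3.49, Hyal1 at 4.35 ± 0.779, Has3 at 3.52 ± 0.326, Has2 at 1.31 ± 0.247 and Has1 at 0.783 ± 0.187. Hyal2 and Cemip overlapped in this order, as did Hyal1 and Has3; the other neighbours did not. In Cort-/- BECs under NX/NG the order was the same from Cd44 at 28.6 ± 2.55 (SD, n = 2) through Hyal2 at 18.5 ± 0.327 to Cemip, but Cemip stood at 5.66 ± 0.752, near Hyal1 at 3.96 ± 0.409 and Has3 at 3.58 ± 0.108. Has2 at 0.801 ± 0.0296 then overlapped with Has1 at 0.692 ± 0.264. Over the 10 libraries, jointly scaled Cemip spanned 4.11-fold from lowest to highest and Has2 3.91-fold, while Hyal2 spanned 1.15-fold and Has3 1.25-fold. Cemip and Has2 had the widest ranges of the 7 genes, and Hyal2 and Has3 the narrowest. The reads behind these levels ran from 18 to 55 for Has1 and 42 to 163 for Has2, against 775 to 3178 for Cemip and 2311 to 3992 for Cd44, so counting error weighs most on Has1 and Has2.

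The first comparison asked how BECs without cortistatin differed under NX/NG. Under these conditions 3 of the 7 genes, Cemip, Cd44 and Has2, were lower in both Cort-/- libraries than in all 3 Cort+/+ libraries, and none was higher without overlap. Among all 21118 genes tested, the 2 genotypes did not overlap for 29.0%, in either direction. No gene was called (0.0%), and 2252 (10.7%) had an unadjusted p under 0.05, as 3 of the 7 did; limma-voom on the recovered reads called 80 genes, Cemip among them. The median difference of the 7 genes was -0.18, beside -0.00082 for all genes tested.

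Among the genes of breakdown, Cemip, which binds hyaluronan and is needed for its depolymerization in fibroblasts, had the largest genotype difference by value. It stood at 5.13 and 6.19 deposited RPKM in the Cort-/- NX/NG libraries and at 21.2, 19.7 and 14.5 in the Cort+/+ NX/NG libraries. The lowest Cort+/+ library was thus above the highest Cort-/- library by more than the spread within either genotype. The fitted difference was 3.20-fold, a log2 fold change of -1.68 (SE 0.19, 95% interval -2.15 to -1.20, limma FDR = 0.0928), which missed the threshold. With limma-voom the value was -1.69 (FDR = 0.0107), the only one of 13 alternatives to call it, and leaving out each library in turn gave -1.84 to -1.54. A fit that joined both environments with 1 genotype term gave -0.98 (limma FDR = 0.181).

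The hyaluronidases stayed close between genotypes. Hyal2, a hyaluronidase anchored at the cell surface, lay between 18.3 and 18.7 deposited RPKM in Cort-/- and between 18.1 and 19.0 in Cort+/+ NX/NG libraries. Its difference of -0.012 had a 95% interval of -0.15 to 0.12 on the log2 scale, the narrowest of the 7. Hyal1, the lysosomal hyaluronidase, lay between 3.67 and 4.24 in Cort-/- and between 3.60 and 5.16 in Cort+/+ NX/NG libraries, and its difference was -0.12 (SE 0.17, limma FDR = 0.814). In GENCODE M21, 50.8% of the exonic bases of Hyal1 are also exons of Naa80 on the same strand, and the authors' handling of shared reads is not given in the sources used here, so the level of Hyal1 is uncertain. Hyal2 and Hyal1 are neighbours on chromosome 9, 4147 bases apart.

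Among the synthases, the genotypes separated for Has2 alone. Has2, the synthase that embryonic heart and vessel development needs, stood at 0.822 and 0.780 deposited RPKM in Cort-/- and at 1.42, 1.47 and 1.02 in Cort+/+ NX/NG libraries. These values did not overlap, though Cort+/+ replicate 3 lay closer to the Cort-/- libraries than to its own group. The log2 fold change was -0.63 (SE 0.21, 95% interval -1.16 to -0.10, limma FDR = 0.414). Has3, which had the highest level of the 3 synthases, lay between 3.50 and 3.66 in Cort-/- and between 3.26 and 3.89 in Cort+/+, a difference of 0.027 with an interval of -0.25 to 0.30. Has1, the lowest, lay between 0.505 and 0.878 in Cort-/- and between 0.633 and 0.993 in Cort+/+, a difference of -0.18 (SE 0.31, limma FDR = 0.861). In GENCODE M21, Has3 shares 352 exonic bases (5.52%) with the protein-coding gene Chtf8 on the opposite strand. Has2 shares 182 exonic bases (4.30%) with its antisense transcript Has2os. Has2os stood at 0.298 and 0.338 deposited RPKM in Cort-/- and at 0.651, 0.654 and 0.373 in Cort+/+ NX/NG libraries. These did not overlap, as for 29.0% of all genes tested. They rest on 6 and 7 reads in Cort-/- and on 13, 14 and 7 in Cort+/+. The nearest libraries of the 2 genotypes thus held 7 reads each. The labels and the study's methods name different library kits, both stranded by name, but whether the counting used it is not given in the sources used here, so reads of the shared bases may not be told apart.

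Cd44, the main cell surface receptor for hyaluronan, also separated the genotypes under NX/NG, by a smaller amount. It stood at 30.4 and 26.8 deposited RPKM in Cort-/- and at 39.8, 38.7 and 31.0 in Cort+/+ NX/NG libraries. The gap between the highest Cort-/- and the lowest Cort+/+ library was small beside the spread within Cort+/+. Its log2 fold change was -0.34 (SE 0.13, 95% interval -0.68 to -0.011, limma FDR = 0.454).

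Collagen and pericyte transcripts were lower in the same Cort-/- libraries, and smooth muscle transcripts overlapped between genotypes. The 8 fibroblast and leptomeningeal markers summed to 83.6 to 121 deposited RPKM in Cort-/- and to 193 to 279 in Cort+/+ NX/NG libraries, nearly all from the collagens Col1a1, Col1a2 and Col3a1. Of the 5 tested, 3 had an unadjusted p under 0.05, all lower, beside 10.7% of all genes tested in either direction. These were the 3 collagens, and the median difference of the 5 was -1.04. Pdgfra, a receptor that marks fibroblasts, went the other way, at 0.485 and 0.706 in Cort-/- and at 0.366, 0.319 and 0.320 in Cort+/+, without overlap (log2 fold change 0.66, limma FDR = 0.474). The genotypes did not overlap for 29.0% of all genes tested under NX/NG. Dpt was listed at 0 in 8 of the 10 libraries and Slc6a13 in 6. The 6 pericyte markers summed to 7.59 to 10.2 in Cort-/- and to 17.9 to 21.4 in Cort+/+, led by Pdgfrb, and Abcc9 and Kcnj8 were listed at 0 in 6 and 5 libraries. Of the 4 pericyte markers tested, 3 had an unadjusted p under 0.05, all lower, beside the same 10.7% of all genes. The smooth muscle markers summed to 1300 to 1556 in Cort-/- and to 1449 to 1777 in Cort+/+; all 5 were tested, none had an unadjusted p under 0.05, the median was -0.14 and Myh11 had a positive difference. The endothelial markers summed to 1098 to 1222 in Cort-/- and to 847 to 1107 in Cort+/+ NX/NG libraries. The part of these cells in the values of Cemip, Has2 and Cd44 was not tested, and fewer cells of a type and less RNA per cell cannot be told apart in bulk RNA.

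After OGD-R, the genotype differences of Cemip and Has2 were smaller and their groups overlapped. Of the 7 genes, Cd44 alone did not overlap between genotypes, beside 16.3% of all 21108 genes tested. No gene was called (0.0%), 783 (3.71%) had an unadjusted p under 0.05 and none of the 7 did; limma-voom called 3 genes in all. The median difference of the 7 genes was -0.025, beside -0.0078 for all genes tested. These comparisons rest on 2 Cort-/- libraries, 1 of them low in ribosomal RNA.

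Cemip after OGD-R stood at 8.45 and 13.6 deposited RPKM in Cort-/- replicates 1 and 3 and at 14.6, 12.3 and 12.8 in the Cort+/+ libraries. Cort-/- replicate 3 and Cort+/+ replicate 1, the 2 libraries low in ribosomal RNA, held the highest value of their genotype. The log2 fold change was -0.30 (SE 0.21, 95% interval -0.83 to 0.24, limma FDR = 0.999). Without Cort-/- replicate 1 it was 0.040, without Cort-/- replicate 3 it was -0.64, and without both libraries low in ribosomal RNA it was -0.57. The fibroblast and leptomeningeal markers summed to 199.6 and 252 in the Cort-/- OGD-R libraries and to between 231 and 342 in the Cort+/+ libraries.

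Has2 after OGD-R stood at 2.82 and 1.47 deposited RPKM in Cort-/- and at 1.91, 2.70 and 3.22 in Cort+/+ libraries. Here the libraries low in ribosomal RNA, Cort-/- replicate 3 and Cort+/+ replicate 1, held the lowest value of their genotype. Its difference of -0.31 (SE 0.34, limma FDR = 0.999) lay within the spread of either genotype and was 0.14 without Cort-/- replicate 3. Cd44 stood at 30.8 and 36.7 in Cort-/- and at 42.9, 43.7 and 37.5 in Cort+/+ OGD-R libraries, so all Cort-/- values were lower, with a log2 fold change of -0.29 (SE 0.13, 95% interval -0.61 to 0.018, limma FDR = 0.999). Without Cort-/- replicate 1 it was -0.17. Has1, Has3, Hyal1 and Hyal2 overlapped between genotypes, and their differences ran from -0.025 for Has3 to 0.15 for Hyal1.

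**Figure D1:**
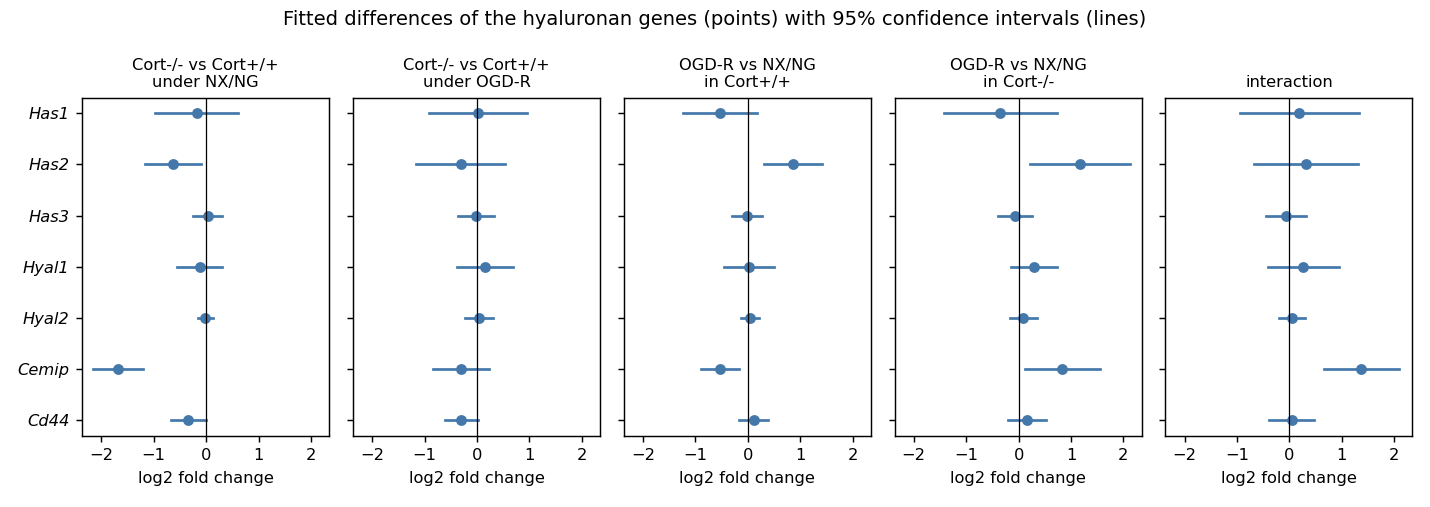
Log2 fold change (x axis, log2(RPKM + 0.1) scale) of each of the 7 genes (y axis) in the 5 comparisons, as points with 95% confidence intervals from limma; the interaction is the OGD-R minus the NX/NG genotype difference. Cemip has the largest genotype difference under NX/NG, -1.68, and the largest interaction, 1.37, and the intervals of Has3 and Hyal2 hold 0 in all 5.

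From NX/NG to OGD-R, the genes that differed most in Cort+/+ BECs were Has2, which was higher, and Cemip, which was lower. Both groups of libraries were separate for these 2 of the 7 genes, beside 11.7% of the 20757 genes tested. Of all genes, 7 were called (0.0337%), none of them among the 7 hyaluronan genes, and 1272 (6.13%) had an unadjusted p under 0.05, as these 2 did; limma-voom called 1 gene. Jointly scaled Has2 stood at 1.46, 1.51 and 1.05 RPKM under NX/NG and at 1.86, 2.63 and 3.14 after OGD-R in Cort+/+ BECs. Every OGD-R library was above every NX/NG library, with a wider spread after OGD-R. The log2 fold change was 0.86 (SE 0.23, 95% interval 0.30 to 1.42, limma FDR = 0.794), and 1.06 without Cort+/+ OGD-R replicate 1, the library low in ribosomal RNA. Has2os differed by 0.91 (SE 0.25, limma FDR = 0.804) in the same comparison.

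Cemip in Cort+/+ BECs, jointly scaled, stood at 21.7, 20.1 and 14.9 RPKM under NX/NG and at 14.2, 12.0 and 12.5 after OGD-R. The values did not overlap, but NX/NG replicate 3 and OGD-R replicate 1 lay close together. The log2 fold change was -0.53 (SE 0.15, 95% interval -0.90 to -0.17, limma FDR = 0.804). The summed fibroblast and leptomeningeal markers overlapped, at 193 to 279 deposited RPKM under NX/NG and 231 to 342 after OGD-R. Of the 5 tested, 4 had positive differences, none with an unadjusted p under 0.05. Their part in the values of Cemip was not tested. Has1 was also lower by value, at -0.53 (SE 0.29, limma FDR = 0.880), with overlapping libraries. Cd44 at 0.11, Hyal2 at 0.047, Hyal1 at 0.024 and Has3 at -0.015 all had intervals that held 0. The median difference of the 7 genes was 0.024, beside -0.0042 for all genes tested.

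In Cort-/- BECs, Has2 and Cemip were both higher after OGD-R than under NX/NG by value. With 2 libraries against 2, jointly scaled groups did not overlap for 5 of the 7 genes, beside 33.4% of the 20620 genes tested. Has2, Cemip, Hyal1 and Hyal2 were higher and Has3 lower. Has3 differed by only -0.074 (95% interval -0.40 to 0.25). Its deposited values overlapped, at 3.66 and 3.50 RPKM under NX/NG and 3.54 and 3.63 after OGD-R, so its separation depended on the scaling. No gene was called (0.0%), nor by limma-voom, and 845 (4.1%) had an unadjusted p under 0.05, as Has2 and Cemip did. Has2, jointly scaled, stood at 0.845 and 0.803 RPKM under NX/NG and at 2.75 and 1.43 after OGD-R, a log2 fold change of 1.18 (SE 0.35, 95% interval 0.22 to 2.13, limma FDR = 0.936). Leaving out OGD-R replicate 1 gave 0.73, and leaving out replicate 3, the library low in ribosomal RNA, gave 1.62. Has2 was thus higher after OGD-R in each genotype, and the size depended on which library was kept.

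Cemip in Cort-/- BECs, jointly scaled, stood at 5.28 and 6.38 RPKM under NX/NG and at 8.23 and 13.2 after OGD-R. The log2 fold change was 0.84 (SE 0.27, 95% interval 0.12 to 1.55, limma FDR = 0.936), and it was 0.50 without OGD-R replicate 3, whose value was the highest of the 4. The direction was the opposite of that in Cort+/+ BECs. The fibroblast and leptomeningeal markers, which had summed to at most 121 deposited RPKM under NX/NG, summed to 199.6 and 252 after OGD-R in these cells. Hyal1 differed by 0.29 (SE 0.16) and Hyal2 by 0.093 (SE 0.094), both with intervals that held 0.

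The interaction asked whether the genotype difference itself changed with the environment. For Cemip it was 1.37 on the log2 scale (SE 0.31, 95% interval 0.66 to 2.08, limma FDR = 1.0), and for Has2 0.31 (SE 0.43, limma FDR = 1.0). Cemip was the only one of the 7 with an unadjusted p under 0.05, beside 530 of 20753 genes (2.55%), and 1 gene was called (0.00482%), with none by limma-voom. Leaving out each library in turn gave 1.03 to 1.71 for Cemip, with the lowest value without Cort-/- OGD-R replicate 3; without both libraries low in ribosomal RNA it was 1.10. The interaction of the other 5 genes ran from -0.059 for Has3 to 0.27 for Hyal1. The genotype and environment comparisons share their groups of libraries and the interaction uses all 10, so these values do not stand apart from each other.

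The mixture of transcripts within each class also differed by value between groups. Of the summed deposited RPKM of the 3 synthases, Has3 made up 60.8% to 66.3% in Cort+/+ and 68.3% to 73.2% in Cort-/- NX/NG libraries. Has2 made up 20.8% to 26.3% and 15.3% to 16.3% in the same libraries, and 30.2% to 45.6% in Cort+/+ and 25.4% to 41.6% in Cort-/- libraries after OGD-R. Has3 was the most abundant synthase transcript per length in all 10 libraries, while the share of Has2 in each OGD-R library was above that in each NX/NG library of its genotype. Of the summed deposited RPKM of Hyal1, Hyal2 and Cemip, Cemip made up 39.2% to 48.7% in Cort+/+ NX/NG, 18.6% to 21.7% in Cort-/- NX/NG, 31.9% to 36.1% in Cort+/+ OGD-R and 25.6% to 33.1% in Cort-/- OGD-R libraries. That sum was 41.5 ± 3.78 (SD, n = 3) in Cort+/+ and 28.1 ± 0.671 (SD, n = 2) in Cort-/- BECs under NX/NG. These shares follow from the levels above and were not tested on their own.

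**Figure D2:**
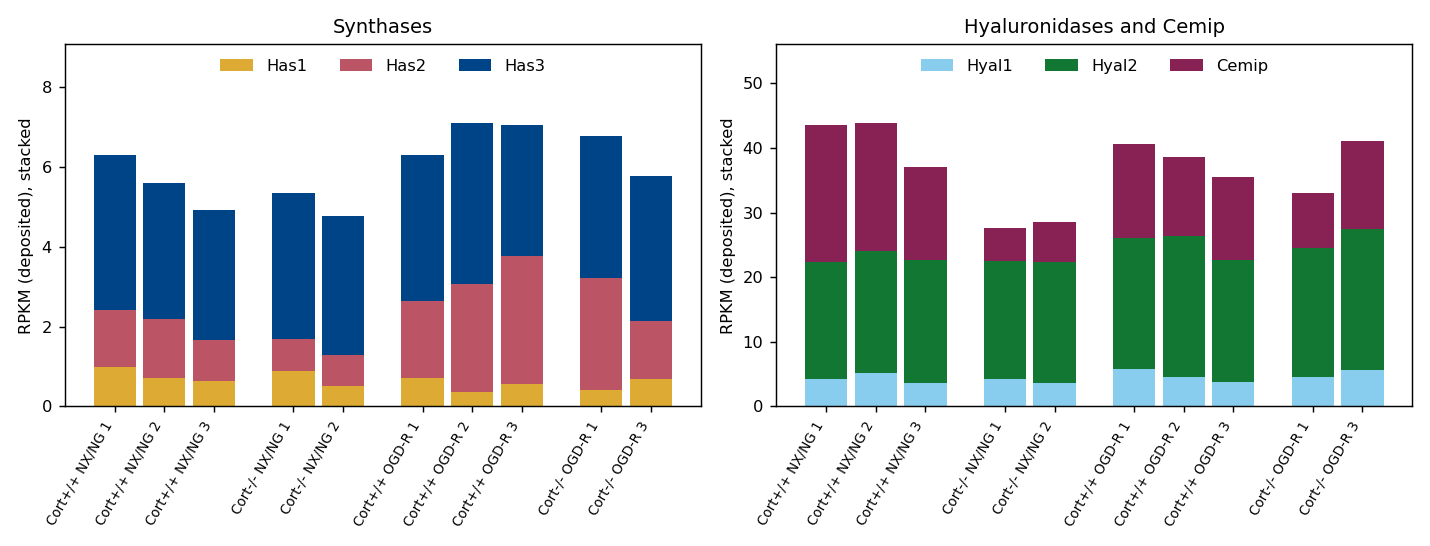
Stacked deposited RPKM (y axis, from 0, scaled apart in each environment) of the synthases (left) and of Hyal1, Hyal2 and Cemip (right) in each library (x axis, named by group and replicate). Has3 is the largest synthase segment in every library, and the Cemip segment is 18.6% to 21.7% of the right-hand stack in Cort-/- NX/NG libraries and 39.2% to 48.7% in Cort+/+ NX/NG libraries.

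The wider hyaluronan pathway was described with 6 lists of 59 genes, none of which held a called gene in any comparison. Sugar precursors come from Ugdh, Ugp2, Gfpt1 and related enzymes, and all 8 were tested. Under NX/NG 1 was higher and 1 lower in Cort-/- at an unadjusted p under 0.05, with a list median of -0.045, and under OGD-R 1 was higher and none lower. Ugp2, which makes UDP-glucose and had the highest level of this list at 14.9 jointly scaled RPKM, overlapped between genotypes in each environment, with differences of -0.082 (SE 0.078) under NX/NG and -0.15 (SE 0.16) after OGD-R. Of 10 other genes of degradation, 5 were tested, with a median of 0.064 under NX/NG. There, 1 gene was higher at an unadjusted p under 0.05, beside the same 10.7% of all genes. Hexa, a lysosomal hexosaminidase subunit, led that list at 93.7 jointly scaled RPKM and differed between genotypes by -0.028 (SE 0.056) under NX/NG.

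The other hyaluronan receptors and Toll-like receptors lay on the opposite side from Cd44. All 6 tested of 7 listed had positive differences in Cort-/- under both environments, and at an unadjusted p under 0.05 there were 3 such genes in normoxia and 1 in OGD-R, beside 10.7% and 3.71% of all genes in either direction. The list median was 0.35 under NX/NG and 0.22 under OGD-R, beside medians of all genes near 0. Other lists lay on the same side: 9 of 10 endothelial markers under NX/NG (median 0.21) and 8 of 10 after OGD-R (0.15) had positive differences, as did all 6 proliferation markers in both environments (0.22 and 0.19). The receptor list itself holds Hmmr, which cycling cells express, and the part of these markers in its values was not tested. Stab1, a scavenger receptor of sinusoidal endothelium and macrophages, led the list: it stood at 31.8 and 30.8 deposited RPKM in Cort-/- and at 23.8, 25.7 and 25.2 in Cort+/+ NX/NG libraries. After OGD-R it stood at 32.2 and 28.5 in Cort-/- and at 26.7, 22.1 and 20.1 in Cort+/+ libraries. The genotypes did not overlap in either environment, with log2 fold changes of 0.33 (SE 0.056, limma FDR = 0.209) and 0.41 (SE 0.15, limma FDR = 0.999). Such separation was found for 29.0% of all genes tested under NX/NG and for 16.3% after OGD-R. Lyve1, the hyaluronan receptor of lymphatic endothelium, stood at 2.11 and 2.64 in Cort-/- and at 1.43, 1.36 and 1.87 in Cort+/+ NX/NG libraries, a difference of 0.59 (SE 0.19, limma FDR = 0.406).

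Genes listed as binding or crosslinking hyaluronan had a negative median difference in Cort-/- in both environments, with members on either side. Some of them had few reads, such as Bcan with 3 to 12 and Ambp with 2 to 14 over the libraries, so counting error weighs on these medians. Of 18 listed, 10 were tested under NX/NG, 7 with negative differences, and the list median was -0.34. An unadjusted p under 0.05 was found for 2 of the 10, both lower, beside 10.7% of all genes in either direction. After OGD-R 9 were tested, 5 with negative and 4 with positive differences, none with an unadjusted p under 0.05, and the median was -0.24. Vcan, the large hyaluronan-binding proteoglycan versican, stood at 5.32 and 3.86 deposited RPKM in Cort-/- and at 9.00, 7.25 and 6.52 in Cort+/+ NX/NG libraries, a log2 fold change of -0.72 (SE 0.20, limma FDR = 0.351). Itih2, a heavy chain of the inter-alpha-inhibitor that is transferred to hyaluronan, stood at 1.05 and 0.902 in Cort-/- and at 1.57, 1.63 and 1.33 in Cort+/+ NX/NG libraries, a log2 fold change of -0.58 (SE 0.16, limma FDR = 0.364). Both genes, named because of their p and size, separated the genotypes without overlap under NX/NG, as did 29.0% of all genes tested. These were the same libraries in which the collagens and pericyte markers were lower. After OGD-R, Itih2 was higher than under NX/NG by 0.60 (SE 0.19, limma FDR = 0.807) in Cort+/+ and by 0.65 (SE 0.24, limma FDR = 0.936) in Cort-/- BECs, without overlap in either genotype, as was Has2. Among all genes tested, 11.7% in Cort+/+ and 33.4% in Cort-/- BECs did not overlap between environments.

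**Figure D3:**
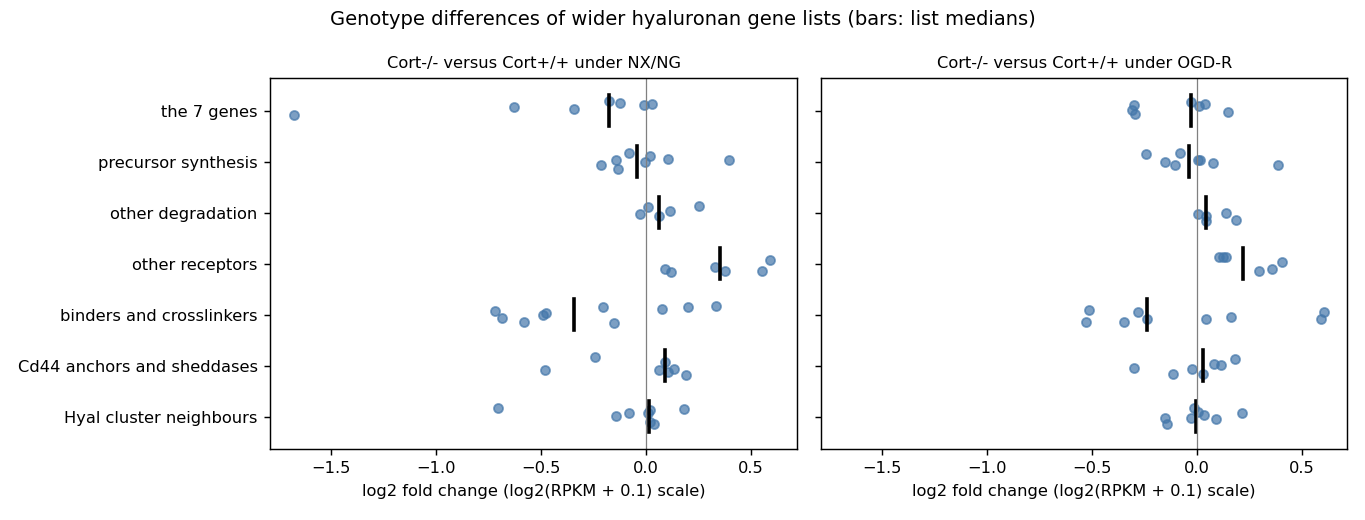
Log2 fold change of Cort-/- over Cort+/+ (x axis, log2(RPKM + 0.1) scale) of each tested gene (points) of the 7 hyaluronan genes and of 6 wider lists (y axis; vertical position within a list has no meaning), under NX/NG (left) and OGD-R (right), with list medians as bars. All 6 points of the other receptors lie above 0 in both panels, with medians of 0.35 and 0.22.

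By the pattern over all 10 libraries, the genes most like Cemip were Setbp1 (Pearson r = 0.972), the collagen-binding integrin subunit Itga10 (0.952) and Scpep1os (0.947). Those most like Cd44 were Ncs1 (0.978), Gm43738 (0.977) and Podn (0.977), and those most like Has2 were Sirt6 (0.920), Bcl3 (0.906) and Fbxw4 (0.904). Galnt2 (0.963), Tll1 (0.949) and Itgb4 (0.949) were most like Hyal1, and Ssna1 (0.927), Atg7 (0.926) and Washc3 (0.923) most like Hyal2. For Has3 they were ENSMUSG00002076939 (0.905), Rtca (0.885) and Rpn2 (0.867). Each r describes jointly scaled log2 levels in the same 10 libraries, ranked among 13788 other genes, so high values are found for every gene and share library, group and depth. None of the 6 ranked genes was among the 3 most like another, and Has1 was below the level ranked. Between members, r was highest for Cemip with Cd44, at 0.737, and that of Has2 with Has2os was 0.968. With the summed deposited RPKM of the fibroblast and leptomeningeal markers, on a log2 scale in the same libraries, r was 0.922 for Cd44, 0.816 for Cemip and 0.655 for Has2, values that also hold the group differences given above.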

How the data were processed

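RNA-seq libraries of cultured BECs were analysed as RPKM deposited by the authors, in 1 table per environment, scaled apart; per the labels the authors used edgeR, with no version given, and the aligner, genome build and annotation are not given in the sources used here. The tables' gene lengths equal those of GENCODE M21 (GRCm38) for 98.2% of 30625 genes, but 450 genes carry Ensembl IDs that M21 lacks. The authors' log2 fold changes, p-values, FDR and expression categories were not used. RPKM times length was a whole multiple of 1 read (tolerance 0.05), so reads could be recovered for at least 99.9958% of values; how near-equal totals arose is not given in the sources used here, and precision is that of these totals and of 2 to 3 libraries a group. Replicate 3 of Cort-/- NX/NG and replicate 2 of Cort-/- OGD-R were not analysed here. The study's heatmaps leave out Cort+/+ OGD-R replicate 1; it was kept here and left out as an alternative.

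limma 3.58.1 (R 4.3.3, trended empirical Bayes) was fitted on log2(RPKM + 0.1) over genes whose mean was 0.1 RPKM or more, with only the groups compared; environments were joined by recovered reads over 27321 genes and trimmed mean of M values scaling. The fits were also run on simulated reads whose changes were larger than any fitted here for the 7 members. That run gives no measure of power at the differences seen here. Members, lists and tests were chosen with earlier results of these data known. Always named were the 7 members; of the wider lists, genes with an FDR of at most 0.05, or an unadjusted p under 0.05 and an absolute log2 fold change of at least 0.58, and the highest expressed gene of each list; and the 3 genes most correlated with each member of at least 1 RPKM. Promoters were read from RefSeq (GRCm38.p6). Alternatives are given in the closing section. P-values measure the spread between pooled cultures.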

Additional observations from a re-analysis of the deposited data

Results flagged for a closer look

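The interaction of Cemip drew attention because its jointly scaled RPKM was lower after OGD-R than under NX/NG in every Cort+/+ library and higher in every Cort-/- library, without overlap in either genotype. Environments did not overlap for 11.7% of all genes tested in Cort+/+ and for 33.4% in Cort-/- BECs. The interaction log2 fold change of Cemip was 1.37 and did not pass the threshold (limma FDR = 1.0). The summed fibroblast and leptomeningeal markers were likewise higher after OGD-R in Cort-/- (83.6 to 121 deposited RPKM under NX/NG, 199.6 and 252 after OGD-R). In Cort+/+ they overlapped and were higher by mean after OGD-R (248 and 295), where Cemip was lower. Their part in the interaction was not tested.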

How the results depend on the processing

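No hyaluronan gene passed the threshold in any alternative except Cemip under NX/NG with limma-voom (-1.69, FDR = 0.0107). Of 566 alternative values of 40 fold changes, 519 kept direction and side of the threshold and 46 turned direction. Differences of Has2, Cemip and Cd44 between genotypes under NX/NG, and of Has2 between environments, turned in none. Has1 had no value over genes of at least 1 RPKM. With 2 libraries in a group, leaving 1 out assumes that the other varies like the remaining groups.

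Genes called, NX/NG genotype comparison, 0 in the report: 80 with limma-voom, 4 with all groups in 1 fit and 26 in an additive fit added after seeing the data. OGD-R genotype comparison, 0: 3 with limma-voom and 7 in 1 fit. Environment in Cort+/+, 7: 1 with a pseudocount of 1, 9 over genes with any value above 0, 0 over genes of at least 1 RPKM, 1 with limma-voom, 0 in 1 fit, and 0 to 8 leaving out each library. In settings added after seeing the data it was 8 in the additive fit, 6 with a covariate marking the OGD-R library of low ribosomal RNA and 8 without that library. Environment in Cort-/-, 0: 1 in 1 fit. Interaction, 1: 0 with a pseudocount of 1, 3 over genes with any value above 0, 0 over genes of at least 1 RPKM, with limma-voom, with a covariate marking the OGD-R libraries of low ribosomal RNA or without both (added after seeing the data), and 0 to 4 leaving out each library.

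With group means subtracted, same-numbered samples showed no common positive correlation (r of -0.059, -0.074 and 0.19 between environments in Cort+/+, and below 0 between genotypes). In the Cort-/- groups the values of the 2 libraries mirror each other, so pairing between genotypes cannot be decided from them. With a replicate block, 0 genes were called in either genotype comparison and 0 in place of 7 between environments in Cort+/+. Under this block Has1 was -0.21 and Has3 0.045 between genotypes after OGD-R, and Has3 was -0.025 and Hyal2 0.00014 under NX/NG. No paired analysis was possible for Cort-/- between environments because only 1 number is shared, nor for the interaction.

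With the term for ribosomal RNA, Has1 was -0.086 between genotypes after OGD-R and Hyal1 -0.14 between environments in Cort+/+. Without both low libraries, Has1 was -0.090 and Hyal2 -0.027 between genotypes after OGD-R, Hyal1 was -0.14 between environments in Cort+/+, and the interaction was -0.021 for Hyal2 and -0.056 for Cd44. In the additive fit, Hyal1 was 0.016 and Hyal2 0.017 between genotypes, and Cemip 0.014 between environments.

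Leaving out each library in turn, the NX/NG genotype difference ran from -0.53 to 0.17 for Has1, -0.025 to 0.098 for Has3, -0.25 to 0.0034 for Hyal1 and -0.036 to 0.0057 for Hyal2. That after OGD-R ran from -0.29 to 0.31 for Has1, -0.76 to 0.14 for Has2, -0.10 to 0.045 for Has3, -0.00065 to 0.32 for Hyal1, -0.024 to 0.11 for Hyal2 and -0.64 to 0.040 for Cemip. Between environments in Cort+/+ it ran from -0.086 to 0.060 for Has3, -0.14 to 0.17 for Hyal1 and -0.0060 to 0.097 for Hyal2, and in Cort-/- from -0.69 to 0.0016 for Has1. The interaction ran from -0.16 to 0.53 for Has1, -0.13 to 0.76 for Has2, -0.13 to 0.012 for Has3, -0.018 to 0.11 for Hyal2 and -0.083 to 0.17 for Cd44. The cause was not tested.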

Other observations

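Proteins that anchor or shed Cd44 showed no common direction. Msn, the cytoskeletal linker moesin, had the highest level at 313 jointly scaled RPKM and was higher in Cort-/- by 0.19 (SE 0.072, limma FDR = 0.457) under NX/NG and by 0.18 (SE 0.14, limma FDR = 0.999) after OGD-R, without overlap between genotypes in either. The genotypes did not overlap for 29.0% of all genes tested under NX/NG and for 16.3% after OGD-R. Of the 7 genes of this list, 1 was higher and 1 lower at an unadjusted p under 0.05 under NX/NG, beside 10.7% of all genes tested in either direction.

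Among 8 tested neighbours of Hyal1 and Hyal2 on chromosome 9, Rassf1 had the highest level, at 18.4 jointly scaled RPKM. It was the only one with an unadjusted p under 0.05 in any of the 5 comparisons, between environments in Cort+/+. In that comparison 6.13% of all genes tested had such a p. The median genotype difference of these neighbours was 0.015 under NX/NG and -0.00099 after OGD-R.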
